A study of Drosophila melanogaster with 2 samples.

Results

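Chromatin immunoprecipitation followed by sequencing was run on a ranshi-eGFP fusion protein in whole Drosophila melanogaster embryos, and 1170 of the 3149 peaks that passed the reproducibility threshold in replicate 2 were called in replicate 2 alone. They were chosen by measured values: a replicate 2 thresholded peak on 1 of the 7 main chromosome arms counted as replicate 2 only when it overlapped, by 1 bp or more, no thresholded replicate 1 peak and no peak of the conservative set of the series. Another 1791 replicate 2 peaks overlapped a replicate 1 peak and are called shared below, and the remaining 188 overlapped a conservative peak but no replicate 1 peak. The mirror rule gave 1035 replicate 1 only peaks out of 3582. In replicate 2, 76750 candidate peaks overlapped no thresholded set and served as a further comparison.

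The study held 1 group of 2 biological replicates: transgenic flies of the strain ranshi-GFP, which carry an insertion targeting ranshi and make its product as an eGFP fusion, collected as whole embryos at 0 to 24 h. Chromatin was sheared in a Bioruptor to a labelled size range of 200 to 800, with no unit given, and the fusion was pulled down with an anti-GFP antibody. Embryos of mixed age and all tissues entered each library, and the labels do not say which cells make the fusion. No untagged group was compared, and control libraries were not analysed here. Read depth is not given, so how far depth differs between the replicates is unknown.

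ZAD zinc finger proteins join a zinc-finger associated domain, through which they pair with one another, to a row of C2H2 fingers that read DNA. The family is large in insects, and its members include architectural and promoter-bound proteins as well as regulators of steroid hormone genes. Ranshi itself is known in the fly for its cluster of close relatives, among them ouib, which controls a gene of ecdysteroid synthesis.

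The sequences at the summits of the strongest replicate 2 only peaks are shown first, because the base composition and the motifs of these summits are what the results turn on. Each is the summit base with 50 bp to each side on the plus strand, from the RefSeq Release 6 plus ISO1 MT assembly, the same build as dm6. Capitals mark matches to the motifs that were more frequent in replicate 2 only than in shared peaks and to the 20 words learned on shared peaks, both described further on, and all other bases are in lower case. The first 6 are the peaks of highest signal that touch no UTR exon, on the arms for which sequence is printed here. They lie at chr3L:15508332-15508432 (CG7841), chr3R:24109162-24109262 (CG18428), chr2L:5907554-5907654 (bchs), chr2L:10474443-10474543 (RluA-1), chr4:497868-497968 (zfh2) and chr3L:4475106-4475206 (CG11349).
CG7841: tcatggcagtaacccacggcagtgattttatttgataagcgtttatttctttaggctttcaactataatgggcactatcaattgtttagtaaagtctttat
CG18428: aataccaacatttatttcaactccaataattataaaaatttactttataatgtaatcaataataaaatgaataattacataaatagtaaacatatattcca
bchs: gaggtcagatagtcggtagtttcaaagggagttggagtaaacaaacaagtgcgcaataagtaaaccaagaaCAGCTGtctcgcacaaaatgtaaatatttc
RluA-1: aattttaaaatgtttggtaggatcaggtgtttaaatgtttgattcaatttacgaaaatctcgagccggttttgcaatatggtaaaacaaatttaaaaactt
zfh2: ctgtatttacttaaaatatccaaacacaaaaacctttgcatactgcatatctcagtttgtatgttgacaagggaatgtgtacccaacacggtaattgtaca
CG11349: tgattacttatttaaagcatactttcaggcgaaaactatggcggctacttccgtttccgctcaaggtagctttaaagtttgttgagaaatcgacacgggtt
Among these 6, the bchs window alone held such a match, the E-box CAGCTG, and the G+C of these 6 windows ranged from 15.8% at CG18428 to 40.6% at CG11349. These strongest windows are not typical of the group: all 1170 summits averaged 44.0% G+C, and 65.0% of them had 40% or more.

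Under the same limits, the next 4 are the strongest remaining peaks that hold one of these motifs or words. They lie at chr3L:6124768-6124868 (asRNA:CR46005, in a coding exon), chr3L:9399341-9399441 (CG4080, 164 bp upstream of its start), chr3R:10393841-10393941 (cwo) and chr3R:25879594-25879694 (Tsp96F). The asRNA:CR46005 window held the Ets site CCGGAA on the minus strand and the GC box GGGCGG. The CG4080 window held CTATCGATA, which contains the DRE, and the cwo and Tsp96F windows held the A/T word AAAAATTAA on the minus strand.
asRNA:CR46005: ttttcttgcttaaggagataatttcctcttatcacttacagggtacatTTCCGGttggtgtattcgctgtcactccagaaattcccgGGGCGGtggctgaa
CG4080: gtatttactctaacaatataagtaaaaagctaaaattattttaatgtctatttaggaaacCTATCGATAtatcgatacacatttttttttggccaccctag
cwo: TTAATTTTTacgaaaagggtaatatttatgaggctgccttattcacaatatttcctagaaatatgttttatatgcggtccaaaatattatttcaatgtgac
Tsp96F: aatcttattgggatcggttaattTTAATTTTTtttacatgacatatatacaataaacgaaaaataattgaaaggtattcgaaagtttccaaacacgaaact
A further pair was chosen after the motif values were seen, as the strongest under the same limits with the longer GAGA element and with CACTGAGAG, a leading word of the shared peaks. They lie at chrX:11686355-11686455 in an intron of bif and at chr3R:23191547-23191647 upstream of a start of cnc.
bif: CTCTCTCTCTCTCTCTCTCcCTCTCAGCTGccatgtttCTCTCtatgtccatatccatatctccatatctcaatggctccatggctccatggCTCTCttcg
cnc: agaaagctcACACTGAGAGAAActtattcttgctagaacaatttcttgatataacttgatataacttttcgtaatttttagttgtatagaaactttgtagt

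Signal, score and rank chose these peaks and are given as a description with no test. The score is a whole number up to 1000 that rises with reproducibility, and every thresholded peak had 830 or more. The signal is the peak caller's own value within a list. Replicate 2 only peaks had a median signal of 45.2, with quartiles of 38.6 and 55.0 and a range of 2.02 to 218. Shared peaks had a median of 65.9 and reached 751. The score was 1000 in 732 replicate 2 only peaks (62.6%) and in 1527 shared peaks (85.3%). Among the 300 strongest thresholded peaks of replicate 2, 11 were replicate 2 only and 285 were shared. The low end of the signal held shoulders of stronger peaks: 59 peaks had a signal under 20, and 54 of them overlapped a stronger replicate 2 peak. In all, 59 replicate 2 only peaks and 41 shared peaks overlapped a stronger peak of replicate 2, so a few sites were counted more than once. Just inside the score limit lay peaks at CG11504 (score 830, signal 35.5), GramD1B (831, signal 14.7) and mbl (831, signal 35.1), and just outside lay candidates at NFAT, bun and wnd, each with a score of 829 and signals of 36.9, 32.5 and 30.01.

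In replicate 1 most of these sites had no candidate peak, and a minority had one, mostly of low score. A replicate 1 candidate overlapped 421 of the 1170 peaks (36.0%), and 749 had none. Those 421 candidates had a median rank of 22535 among the replicate 1 candidates and a median score of 43, and the best-ranked quartile ended at rank 11523. The summits of the 2 replicates lay a median of 55 bp apart at these sites, with quartiles of 20 and 105 bp. The larger thresholded set of the series, which did not enter the rule, held 695 of the 1170 peaks, and 385 of those had no replicate 1 candidate. The label "replicate 2 only" therefore describes thresholded sets, not the absence of any signal in replicate 1. The peak upstream of CG18428 had a signal of 185 in replicate 2, and the replicate 1 candidate there had a signal of 663, rank 44 and a score of 1000, but no replicate 1 thresholded peak overlapped it. In the same way, 108 replicate 2 candidates at or past the score limit overlapped no thresholded peak of either replicate and no conservative peak.

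The strongest replicate 2 only peaks were narrow. Of the 20 highest, 16 were under 200 bp wide, and 12 (60%) had no replicate 1 candidate, against 64.0% of all 1170. Only 25 of all 1170 were that narrow, against 401 of the 1791 shared peaks. The highest lay 130 bp upstream of CG7841 (signal 218, rank 92 among the replicate 2 thresholded peaks, no replicate 1 candidate). The next was at shn, which encodes a zinc finger factor of the Dpp pathway, 271 bp upstream of a start (signal 196 in replicate 2, 29.1 in replicate 1). A peak 435 bp inside bchs, which encodes a BEACH-domain protein of autophagy, had a signal of 171 in replicate 2 and 22.9 in replicate 1. RluA-1, named for a pseudouridine synthase family, had a peak of signal 152 with no replicate 1 candidate. At wun, a lipid phosphate phosphatase that guides migrating germ cells, the signal was 148. Homeodomain genes followed: zfh2, with a peak of signal 147 lying 3892 bp upstream of its start, and Dll, the appendage selector gene, with a peak of signal 145 lying 84 bp upstream of its start. At Dll the replicate 1 candidate had a signal of 11.5. Signals of the replicates come from separate lists that are not scaled to each other, so pairs of them are given side by side and not as a ratio. The others of the 20 lay at CG11349, CG31883, CG8668, CG9992, CG5516, CG10948, CG6144, RpL27 and 4 non-coding RNA genes, with signals from 142 down to 111.

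Replicate 2 only peaks lay at promoters somewhat more often than shared peaks did. A summit fell within 500 bp of a transcript start in 701 of 1170 (59.9%, 95% Wilson interval 57.1 to 62.7) and in 952 of 1791 shared peaks (53.2%, 50.8 to 55.5). The odds ratio was 1.32 (95% interval 1.13 to 1.53, Fisher's exact test, 2-sided, p = 3.22e-04). Peaks are not replicates, so this and the other p-values here cover counting error only. The share was 33.8% in replicate 1 only peaks and 19.8% in replicate 2 candidates in no set, and against both the replicate 2 only share was higher (odds ratios 2.92 and 6.07, exact test, p = 1.04e-34 and 8.05e-195). The difference from shared peaks was not called above the median signal of each group (odds ratio 1.15, exact test, p = 0.215) nor among summits with 35 to 45% G+C, where its direction turned (52.2% against 55.8%, odds ratio 0.866, exact test, p = 0.319). Among peaks with a signal of 30 to 60 in both groups the difference was larger (61.3% against 47.1%, odds ratio 1.78, exact test, p = 1.76e-08).

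None of the 7 feature classes was called among peaks with a score of 1000, above the median signal of each group or at 35 to 45% G+C. Each of these sets was smaller than the whole groups. Over all peaks, 4 of the 7 classes differed between replicate 2 only and shared peaks at a Benjamini-Hochberg adjusted p under 0.05 in Fisher's exact test, 57.1% of those tested. Promoters and coding exons were over-represented, the latter with 9 peaks against 2, and introns (27.7% against 33.2%) and intergenic sequence (8.46% against 11.4%) were under-represented. Candidates in no set had 22.3% of their summits in coding exons, against 0.769% of replicate 2 only peaks. The strongest coding-exon peak was the one at asRNA:CR46005 (signal 111), the strongest intronic one lay at CG31883 (138), and the strongest in a 5′ UTR lay 504 bp inside cic (76.0), which encodes an HMG-box repressor. Introns held 324 peaks. The 3 strongest peaks more than 5 kb from a start were intronic. They lay in caps (signal 110), which encodes a cell-affinity protein with leucine-rich repeats, Lrch (100.4) and atos (97.0). The share beyond 5 kb was 10.3% against 11.3% in shared peaks (odds ratio 0.894, 0.698 to 1.14, exact test, p = 0.366). It was 25.99% in replicate 1 only peaks, from which replicate 2 only peaks did differ (odds ratio 0.326, exact test, p = 2.83e-22). Among shared and replicate 2 only peaks with a signal of 30 to 60 the shares were 14.7% and 9.05% (odds ratio 0.579, exact test, p = 6.86e-04).

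Several genes carried more than 1 replicate 2 only peak. The 1170 peaks had 959 closest genes, of which 124 had 2 peaks, 24 had 3 and 12 had 4 or more. The gene with most was atos, with 6 intronic peaks of signal 6.66 to 108 and no replicate 1 candidate at any. SNF4Agamma, the regulatory subunit of AMP-activated kinase, had 5 (44.3 to 64.1). EcR, the ecdysone receptor gene, had 4 (16.1 to 58.2), 3 of them in introns, and so did tai, which encodes a coactivator of that receptor (43.1 to 62.3). None of the EcR and tai peaks had a replicate 1 candidate. Pairs of overlapping peaks add to these counts.

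Within promoters the 2 kinds of replicate 2 peak sat at different places. Shared summits lay mainly upstream of the start, at a median of -105.5 bp (quartiles -184 and -32.8), whereas replicate 2 only summits lay across it, at a median of -11 bp (quartiles -92 and 54). Of the promoter summits, 375 of 701 (53.5%) were upstream of the closest start in replicate 2 only peaks and 777 of 952 (81.6%) in shared peaks. The odds ratio was 0.259 (95% interval 0.206 to 0.325, Fisher's exact test, 2-sided, p = 1.68e-34). Within 50 bp of the start lay 253 summits (36.1%, 32.6 to 39.7) and 162 shared summits (17.0%, 14.8 to 19.5). A start on each strand lay within 500 bp of the summit in 127 of the 701 replicate 2 only promoter peaks (18.1%) and in 348 of the 952 shared ones (36.6%).

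**Figure D1:**
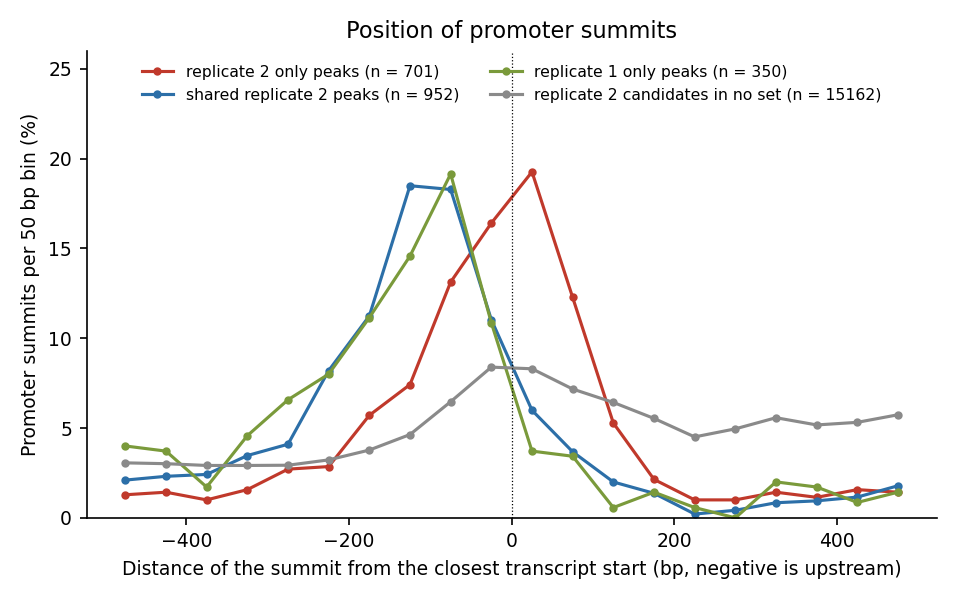
Share of promoter summits (y axis, % per 50 bp bin) by distance from the closest transcript start (x axis, bp, negative is upstream) for replicate 2 only, shared and replicate 1 only peaks and for replicate 2 candidates in no set. Replicate 2 only summits (median -11 bp) peak at the start, whereas shared (median -105.5 bp) and replicate 1 only summits (median -114 bp) peak upstream.

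The plot of summit positions shows similar shapes for shared and replicate 1 only peaks: 84.3% of the 350 replicate 1 only promoter summits were upstream, with a median of -114 bp. Replicate 2 only peaks differed from them as well (odds ratio 0.215, p = 3.43e-24, Fisher's exact test). Replicate 2 candidates in no set were spread over both sides with 41.3% upstream, so replicate 2 only peaks were upstream more often than those (odds ratio 1.63, exact test, p = 2.46e-10) and less often than shared peaks. The lower upstream share against shared peaks held among summits of 35 to 45% G+C (47.3% against 74.9%, odds ratio 0.302, exact test, p = 5.98e-09) and among peaks with a signal of 30 to 60 (52.9% against 81.7%, odds ratio 0.252, exact test, p = 8.29e-19).

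Replicate 2 only peaks were scarce on X. They numbered 102 there (8.72%, 95% Wilson interval 7.23 to 10.5), against 371 shared peaks (20.7%, 18.9 to 22.7), an odds ratio of 0.366 (0.287 to 0.463, Fisher's exact test, 2-sided, p = 2.94e-19). Per megabase of X this was 4.33 replicate 2 only peaks, against 8.17 to 10.6 on the 4 large autosomal arms. Shared peaks were not scarce there, with 15.8 per megabase on X and 11.8 to 14.1 on those arms. X held 19.9% of the replicate 1 only peaks, 18.1% of the replicate 2 candidates in no set, and 16.9% and 18.1% of all candidates of replicates 1 and 2. Replicate 2 only peaks were fewer on X than in each of these comparison sets (odds ratio 0.385 against replicate 1 only peaks, exact test, p = 3.35e-14, and 0.431 against candidates in no set, p = 2.05e-19). The difference from shared peaks was called under all 10 alternatives computed for it, with odds ratios of 0.324 to 0.462. The strongest X peak lay 146 bp inside CG9992 (signal 119 in replicate 2, 15.9 in replicate 1).

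**Figure D2:**
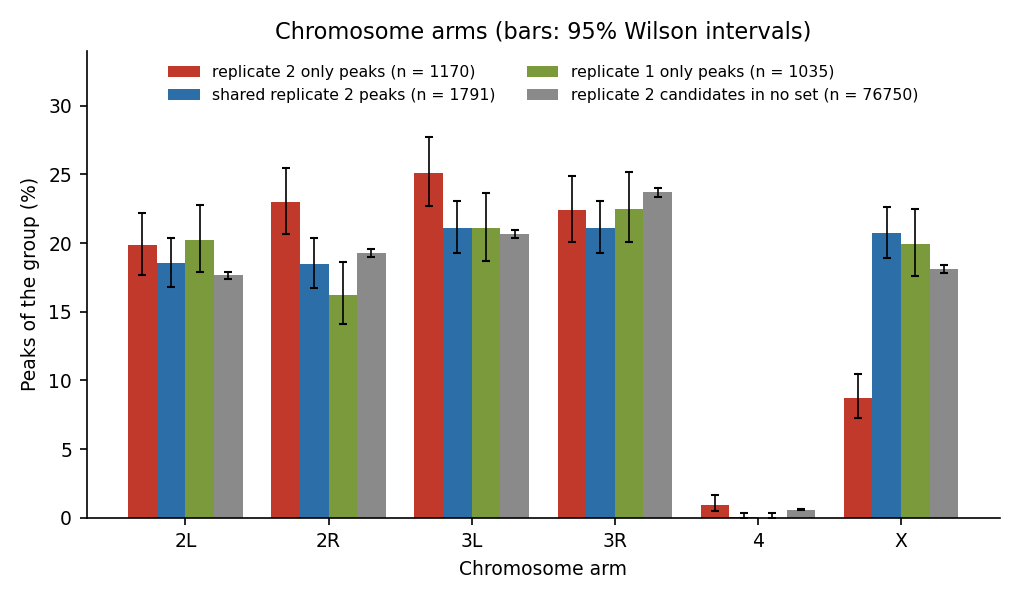
Share of each group's peaks (y axis, %) on 6 chromosome arms (x axis); bars are 95% Wilson intervals, which cover counting error only. On X the replicate 2 only share (8.72%) lies below the other groups (18.1 to 20.7%), and on chromosome 4 (0.940%) its interval overlaps that of candidates in no set (0.590%).

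On the small chromosome 4 the replicate 2 only share was above that of shared peaks in the plot of arms, whereas the number per megabase was just below the range of the large autosomal arms. It held 11 replicate 2 only peaks (0.940%, 0.526 to 1.68, or 8.16 per megabase), 1 shared peak (0.742 per megabase) and no replicate 1 only peak. Candidates in no set had 0.590% there (0.538 to 0.647), which overlaps the interval of the replicate 2 only share. None of the 11 had a replicate 1 candidate. Among all candidates, chromosome 4 held 467 in replicate 2 and 44 in replicate 1, while Y held 4 in replicate 2 and 483 in replicate 1. The part of this difference in candidates in the chromosome 4 counts was not tested. The strongest of the 11 were the zfh2 peak and one 1263 bp upstream of lncRNA:CR43437 (signal 111). A peak in the 3′ UTR of Cals, which encodes calsyntenin, had a signal of 95.6. Promoter peaks on chromosome 4 included those at RpS3A (72.0), a ribosomal protein gene, and at gw (43.4), whose product acts in microRNA silencing.

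The DNA under replicate 2 only summits was richer in G and C. The summit base with 50 bp to each side averaged 44.0% ± 10.2 G+C (SD over 1170 summits), against 33.3% ± 9.81 in shared peaks (1791 summits). A G+C of 40% or more was found at 761 of the 1170 summits (65.0%, 95% Wilson interval 62.3 to 67.7) and at 401 shared summits (22.4%, 20.5 to 24.4). The odds ratio was 6.44 (5.46 to 7.62, Fisher's exact test, 2-sided, p = 7.07e-121). Replicate 1 only summits were like the shared ones in this share, at 22.03%, and candidates in no set were above the replicate 2 only summits, at 74.7%. With a limit of 50% the shares were 30.3% and 7.65%.

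**Figure D3:**
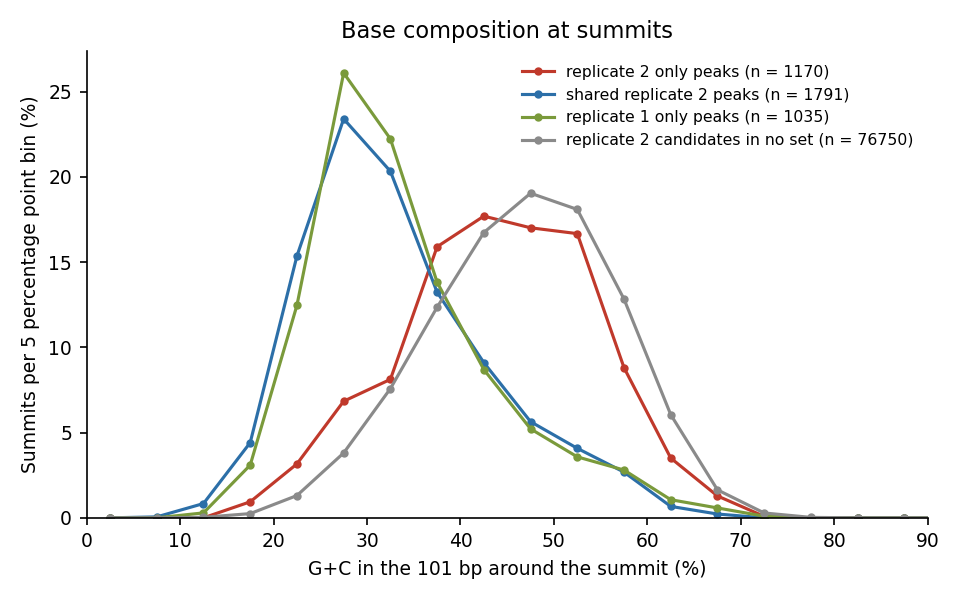
Share of summits (y axis, % per bin of 5 percentage points) by G+C of the summit base and 50 bp to each side (x axis, %) for replicate 2 only, shared and replicate 1 only peaks and replicate 2 candidates in no set. Replicate 2 only summits average 44.0% G+C and lie between shared summits (33.3%) and candidates in no set (46.7%).

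The difference was also found at promoters alone, and the replicate 2 only share varied with signal. At promoters 74.2% of replicate 2 only summits and 26.8% of shared summits reached 40% G+C (odds ratio 7.84, p = 6.19e-84, Fisher's exact test), and outside promoters 51.4% of the replicate 2 only summits did. With the peaks divided at the quartiles of their own signal, the share was, from the weakest to the strongest, 67.9%, 69.5%, 68.5% and 54.3%. The 25 narrow peaks were lower, with 8 at 40% or more and a mean of 35.8%. Peaks with and without a replicate 1 candidate had 67.5% and 63.7%. The plot of base composition shows that replicate 2 only summits spread from the range of shared peaks into that of the candidates. Summits in lower-case, repeat-masked sequence made up 17.4% of replicate 2 only and 23.8% of shared peaks (odds ratio 0.671, 95% interval 0.554 to 0.811, exact test, p = 2.33e-05). Among summits of 35 to 45% G+C this turned, with 15.5% against 9.75% (odds ratio 1.70, exact test, p = 0.0183). Annotated transposable elements held 3 of the 1170 summits.

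Motifs were read on both strands in the same summit windows. Against shared summits 8 of 24 motifs (33.3%) passed an adjusted p of 0.05 in Fisher's exact test with Benjamini-Hochberg adjustment. The GAGA element, spelled GAGAG and bound by Trl, the GAGA factor, was in 264 replicate 2 only windows (22.6%) and 158 shared windows (8.82%), an odds ratio of 3.01 (2.42 to 3.75, exact test, adjusted p = 1.31e-23). Its longer form GAGAGAG, whose matches all hold GAGAG too, was in 74 (6.32%) and 12 (0.670%), an odds ratio of 10.003 (5.37 to 20.3, exact test, adjusted p = 2.07e-18). Also more frequent were the E-boxes CAGCTG (6.07% against 3.57%) and CACGTG (1.88% against 0.558%), the Ets site CCGGAA (3.50% against 1.90%) and the GC box GGGCGG (4.70% against 1.62%). Less frequent were the TATA box TATAAA (10.8% against 23.7%, odds ratio 0.389, exact test, adjusted p = 1.49e-18) and the homeodomain core TAATTA (4.79% against 10.7%, odds ratio 0.421, adjusted p = 3.46e-08). Of 15 alternatives, the Ets site was called in 6, CAGCTG in 9, CACGTG in 11, the GC box in 12, the homeodomain core in 13, and both GAGA forms in 14. TATAAA was also called in 14, in 1 of them in the opposite direction. By their spelling, the more frequent of these 8 motifs hold more G and C than the less frequent ones. The part of base composition in the differences was not tested.

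Among summits of 35 to 45% G+C in both groups none of these 8 was called. This stratum held 393 replicate 2 only and 400 shared summits, so calls can be lost through its smaller size alone. The GAGA element was then in 16.5% of replicate 2 only and 11.5% of shared windows (odds ratio 1.52, 95% interval 0.997 to 2.35). GAGAGAG was in 2.80% and 0.750% (odds ratio 3.80, 0.995 to 21.4), and TATAAA was in 11.2% and 13.3%. The direction turned for the GC box (0.763% against 1.5%), the Ets site (2.80% against 4%) and the homeodomain core (5.34% against 4.25%). The single motif called at that composition was CACTG followed by any 2 bases, which was in 20.6% of replicate 2 only and 32.3% of shared windows (odds ratio 0.546, 95% interval 0.390 to 0.762, exact test, adjusted p = 0.00508). Over all summits that core was in 21.7% and 21.1% (odds ratio 1.04, 0.862 to 1.24). Against replicate 2 candidates in no set, whose G+C was higher, GAGAG was in 13.1% and was more frequent in replicate 2 only windows (odds ratio 1.93), and so was GAGAGAG (1.66% in candidates, odds ratio 4.003). The TATA box was also more frequent than in candidates (10.8% against 7.63%, odds ratio 1.46, exact test, adjusted p = 5.20e-04), the opposite of its direction against shared peaks. Both E-boxes, the Ets site, the GC box and the homeodomain core were not called against candidates, with odds ratios of 0.869 to 1.33.

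A comparison of each summit with its own flanks, windows of the same length centred 300 bp to each side, called 9 of 24 motifs (37.5%). More frequent at summits were CACTGNN (21.7% against 13.1%, odds ratio 1.84, exact test, adjusted p = 3.14e-09), GAGAG (22.6% against 14.0%, odds ratio 1.79) and GAGAGAG (6.32% against 3.29%). So were the DRE TATCGATA, the element of the factor Dref, which contains CGATA (2.39% against 0.556%, odds ratio 4.39), the Motif 1 core GTCACACT, which M1BP binds (1.20% against 0.299%, odds ratio 4.03), and GGGCGG (4.70% against 2.48%). Summit windows of replicate 2 candidates in no set held CACTGNN nearly as often as replicate 2 only summits (19.3% against 21.7%). Less frequent at summits were the TATA box (10.8% against 14.96%), the homeodomain core (4.79% against 7.39%) and the heat shock unit GAANNTTC (1.45% against 2.86%). The other 12 motifs passed in neither comparison, among them the GATA site GATAA (20.3% at replicate 2 only and 21.9% at shared summits), the Zelda site CAGGTA (1.97% and 1.51%) and the nuclear receptor site AGGTCA (2.48% and 1.56%). All 28 DRE and all 14 Motif 1 matches were at promoters, as were 32 of 33 and 14 of 15 at shared summits. Among replicate 2 only peaks the DRE was at the summits of CG10948 (signal 117), RpL27 (112) and CG4080 (109). The Motif 1 core was at RpL37A (107), Adsl (63.1), an enzyme of purine synthesis, and lin-28 (57.0). The GAGA element was in 24.96% of promoter summits and 19.0% of the others, led by shn (196), wun (148) and CG6785 (106). The longer form was at CG6785 and at ush (100.3), which encodes a cofactor of GATA factors.

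**Figure D4:**
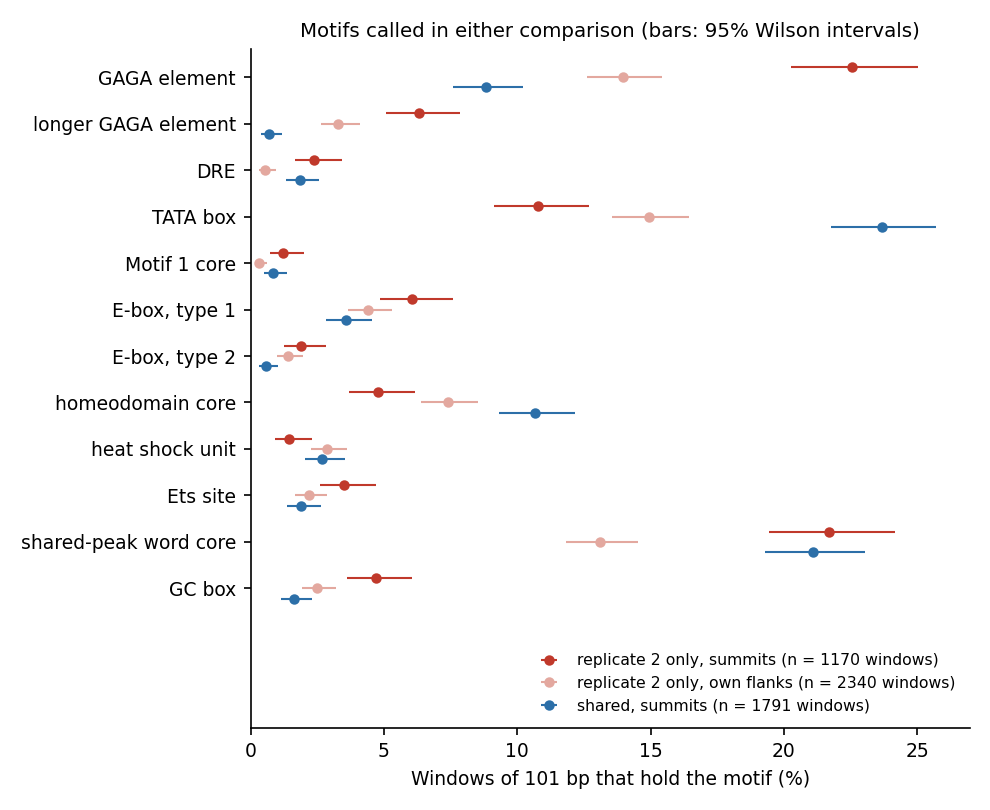
Share of summit windows that hold each motif (x axis, %) at replicate 2 only summits, in their own flanks 300 bp away and at shared summits, for the 12 motifs called in either comparison; bars are 95% Wilson intervals, E-box types 1 and 2 are CAGCTG and CACGTG, and the shared-peak word core is CACTGNN. The GAGA element is at 22.6%, 14.0% and 8.82% in these, and the TATA box at 10.8%, 14.96% and 23.7%.

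Words of 6 and 8 bases gave the same picture as the plot of motifs. Of 34976 words, 676 (1.93%) were more frequent in replicate 2 only than in shared windows and 518 (1.48%) were less frequent, at an adjusted p under 0.05 in Fisher's exact test. GAGAGC led the first group (11.97% against 2.51% of windows) and TTAAAA the second (11.9% against 36.8%). Of the 676, 610 had as many G and C as A and T bases or more, and of the 518, 447 held at most 1 G or C. Only 9 words were called among summits of 35 to 45% G+C, where the groups were smaller (393 and 400 summits). Against their own flanks 91 words (0.26%) were more frequent at replicate 2 only summits, led by ACACTG (8.97% against 3.16%), CAACACTG (2.22% against 0.0855%) and GAGAGC (11.97% against 5.64%). Of those 91, 69 were also among the 676.

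The words that mark shared peaks were found at replicate 2 only peaks, but less often. The 20 words of 9 bases with the smallest p at shared summits, counted within 150 bp of the summit against windows 700 bp away, were led by CCACTGTGC, and 12 of them contained CACTG. At least 1 of the 20 lay within 150 bp of 204 replicate 2 only summits (17.4%, 95% Wilson interval 15.4 to 19.7) and in 266 of 2340 of their own flank windows (11.4%), an odds ratio of 1.65 (1.34 to 2.02, Fisher's exact test, 2-sided, p = 1.21e-06). The words with CACTG alone were at 5.47% of replicate 2 only summits and in 2.56% of their flanks (odds ratio 2.20, 1.51 to 3.21). For peaks with a score of 1000, words were learned anew on shared peaks of that score. The excess over flanks was then not called (odds ratio 1.26, exact test, p = 0.0551). Any of the original 20 words was in 37.6% of summit and 9.46% of flank windows of shared peaks, on which they were chosen. In replicate 1 only peaks the shares were 31.8% and 10.9%. Replicate 2 only summits held a word less often than replicate 1 only summits (odds ratio 0.453, 0.369 to 0.556, exact test, p = 5.33e-15). The mean G+C of these summits was 44.0% and 33.9%, and base composition was not matched in this comparison. CCACTGTGC itself was within 150 bp of 16 replicate 2 only summits (1.37%) and in 0.897% of their flanks, against 6.14% and 0.949% in shared peaks. CTATCGATA, which contains the DRE, had 38 (3.25% against 0.299%), against 3.52% and 0.503% in shared peaks.

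Where the words occurred varied among the replicate 2 only peaks. They were at 19.3% of promoter summits against 10.5% of their flanks, and at 14.7% of the other summits against 12.7%. Peaks with and without a replicate 1 candidate held them at 16.9% and 17.8%. In the 475 peaks outside the larger set of the series the excess over flanks was absent from the estimate (13.3% against 13.6%, odds ratio 0.973, 95% interval 0.692 to 1.36). Words learned and counted within 50 bp of the summit were less frequent at replicate 2 only summits than in flanks (8.12% against 11.8%, odds ratio 0.661, exact test, p = 7.25e-04), so this result depends on the window.

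Protein-coding genes with any replicate 2 candidate at a start, within 500 bp, numbered 10003, and 707 of them (7.07%) had a replicate 2 only peak there whereas 1193 (11.9%) had a shared peak. Both kinds were present at 62, which is 8.77% of the former and 5.20% of the latter. The rule bars a replicate 2 only peak from overlapping a replicate 1 peak, whereas a shared peak must overlap one. The number of genes with both is therefore partly fixed by the rule, and no conclusion is drawn from it. The nearest start belonged to a protein-coding gene for 648 of the 701 promoter peaks, to a non-coding RNA for 38, and to a tRNA, snRNA or snoRNA for 10, 3 and 2. The 30 gene lists below were described by counts against these percentages, with no test. The percentages cover protein-coding genes alone, and none was computed for non-coding RNA genes.

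Cytoplasmic ribosomal protein genes held the most replicate 2 only peaks of any list of protein-coding genes. Of 84 such genes, 23 (27.4%) had one, against the 7.07% of all genes, and 36 (42.9%) had a shared peak, against 11.9%. Only RpS23 had both, and 3 had a replicate 1 only peak. The 23 peaks had a median signal of 55.8, and 18 of them lay within 50 bp of the start. Shared peaks lay that near the start at 25 of their 36 genes. RpL27, RpL37A and RpL11, subunits of the large ribosomal subunit, had signals of 112, 107 and 102 in replicate 2. At RpL27 the replicate 1 candidate had a signal of 23.5 and rank 14903, and RpL37A and RpL11 had no replicate 1 candidate. The list takes its members by name pattern and so includes RpLP0-like (51.9), a relative of a ribosomal protein, and RpS28a (2.83), a shoulder of low signal. Translation factors had 6 of 49 (12.2%) and 7 with shared peaks. They included eEF2 (72.4) and eIF2D (85.0), and eIF4EHP, which shares the CG18428 peak. Mitochondrial ribosomal proteins had 4 of 69 (5.80%), led by mRpL4 (61.7), mRpS11 (57.6) and mRpL53 (44.4).

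Genes of the ecdysone response had replicate 2 only peaks at 6 of 17 (35.3%) and shared peaks at 2. Ecdysone is the steroid hormone that times moults and metamorphosis. The nuclear receptor gene ftz-f1 had a signal of 65.4 at a summit 109 bp upstream of a start, EcR had 54.3 at 23 bp inside the transcript, and Hr3 had 49.7, and none of these had a replicate 1 candidate. Eip63E (47.97), ImpL2 (41.5) and Eip75B (41.3) were the others, and Eip63E and ImpL2 had replicate 1 candidates of signal 5.71 and 20.8. Ecdysteroid biosynthesis genes, which make the hormone, had 0 of 7 with either kind of peak.

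Signalling pathway genes had replicate 2 only peaks at 12 of 37 (32.4%) and shared peaks at 2 (5.41%). Ligand production was represented by vn, an EGF receptor ligand (signal 52.8), and rho, a protease that releases such ligands (47.1). Receptor genes were tkv for Dpp (54.2), fz and arr for Wnt (48.9 and 40.4), N for Delta (46.7), InR for insulin (36.1) and ptc for Hedgehog (35.2). Genes of transcription factors at the end of pathways were Stat92E (63.3), ci (51.6), pnt (43.7) and brk (41.8). Of the 12, Stat92E, vn, rho, InR and ptc, had a replicate 1 candidate, with signals of 27.9, 12.7, 9.85, 31.9 and 28.5. The peak given for ci lies at the start of asRNA:CR43957 on chromosome 4, which overlaps its promoter window.

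**Figure D5:**
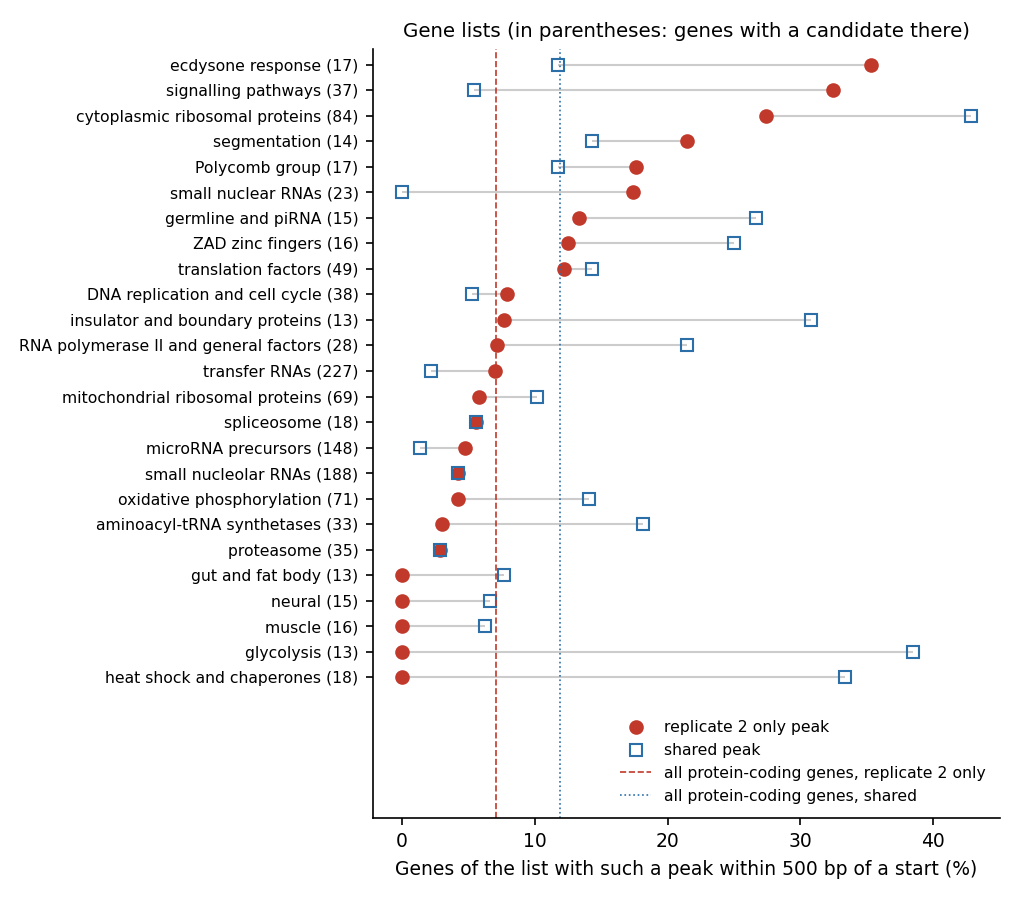
Percentage of genes (x axis), in each list of 13 or more tested genes with either kind of peak, with a replicate 2 only peak (filled circles) or a shared peak (open squares) within 500 bp of a start; the number in parentheses is the genes with a replicate 2 candidate there, and the lines mark all protein-coding genes (7.07% and 11.9%). Ecdysone response and signalling genes lie right of the lines for replicate 2 only peaks, and glycolysis and heat shock genes are at 0.

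Against the 7.07% of all protein-coding genes, other developmental lists gave small counts. Segmentation genes had 3 of 14 (21.4%), hry (67.1), opa (52.7) and cad (40.1), and 2 with shared peaks. Polycomb group genes, which keep developmental genes silent, had 3 of 17 (17.6%), Su(z)2 (53.2), Sfmbt (43.5) and Psc (37.6). Hox genes had 0 of 5. ZAD zinc finger genes had 2 of 16, ken (44.9), which encodes a BTB zinc finger protein, and pad (32.1), which is 12.5%, and 4 with shared peaks. No replicate 2 only peak lay within 5 kb of ranshi, ouib, nom, M1BP or trem.

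Small nuclear RNA genes had replicate 2 only peaks at 4 of 23 (17.4%) and no shared peak. They came from 3 peaks, at the U6 genes snRNA:U6:96Ab and snRNA:U6:96Ac (50.3), at snRNA:7SKa (49.0) and at snRNA:U5:63BC (42.8). Transfer RNA genes had 16 of 227 (7.05%) from 9 peaks and 5 with shared peaks, and several tRNA genes lie side by side under 1 peak. The highest was at tRNA:Ser-CGA-1-4 and tRNA:Val-AAC-2-1 (52.4), and the next at tRNA:Pro-AGG-1-3 and tRNA:Pro-AGG-1-4 (45.8). These gene copies are near-identical and reads from them can be misplaced. MicroRNA precursors had 7 of 148 (4.73%), led by mir-9378 (89.7), mir-9377 (73.2) and mir-4962 (57.7), and small nucleolar RNAs 8 of 188 (4.26%), led by a pair of adjacent genes under 1 peak (55.9).

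Several lists had no replicate 2 only peak. Glycolysis genes had 0 of 13 against 5 with shared peaks, and heat shock and chaperone genes 0 of 18 against 6. Cuticle protein genes (0 of 62), odorant and gustatory receptor genes (0 of 39), neural genes (0 of 15), muscle genes (0 of 16), gut and fat body genes (0 of 13) and histone genes (0 of 5) had none either, and the shared peaks there numbered at most 1 a list. The remaining counts were 3 or fewer a list, and their shares are to be set beside the 7.07% of all protein-coding genes. Oxidative phosphorylation had 3 of 71 (4.23%), SdhD (49.4), ox (49.2) and Cyt-c-p (27.3). DNA replication and cell cycle had 3 of 38 (7.89%), dup (48.8), CycB3 (46.4) and BubR1 (40.7), germline and piRNA genes 2 of 15 (13.3%), piwi (35.5) and gcl (26.6), and RNA polymerase II and general factors 2 of 28 (7.14%), Polr2E (57.6) and Trf2 (38.8). Insulator and boundary proteins had 1 of 13 (7.69%), Trl (46.3), which also had a shared peak, the spliceosome 1 of 18 (5.56%), SF2 (32.1), whose peak is also that of pad, and aminoacyl-tRNA synthetases 1 of 33 (3.03%), ValRS (35.1). The 1 match among 35 proteasome names was Prosap, which meets the name pattern but encodes a synaptic scaffold protein.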

How the data were processed

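ChIP-seq peak lists of 2 biological replicates were analysed. The deposited lists give, per the file headers and columns, a score (a whole number up to 1000), a signal value and −log10 p and q values for each peak. Which peak caller and aligner made them, and the read depth, are not stated in the labels or files used, and the build is dm6. Signal values of the authors are not scaled between lists. They were ranked and summarised within a list, and where values of both replicates stand side by side no fold was computed.

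An overlap of at least 1 bp on 7 arms joined peaks of different lists. Summits were placed against transcript starts (promoter: within 500 bp), exons and the reference sequence 50 bp to each side. Differences in shares had 2-sided Fisher's exact tests, and p-values were adjusted by the Benjamini-Hochberg method across 24 motifs, 34976 words or 7 feature classes. Intervals of shares are 95% Wilson intervals. Peaks, not samples, are the units of these tests, and both the intervals and the p-values cover counting error only. The members and gene lists were chosen with earlier results of these data known. Of the list entries, 13 had no unique match and 11 matched through older symbols.

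Named genes are the closest to the 20 strongest peaks, the 3 strongest beyond 5 kb, the strongest of each class, arm and list (up to 3 a list), and those at the score limit. Other genes named were chosen after their values were seen: further list members, genes with 4 or more peaks, motif examples and the peaks of chromosome 4. Alternatives changed the members, the comparison peaks, the windows, or the composition and signal strata. The code was tested on simulated data. Python 3.11.15, numpy 2.4.6, pandas 2.3.3, scipy 1.17.1 and matplotlib 3.10.9 were used.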

Additional observations from a re-analysis of the deposited data

How the results depend on the processing

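Of 137 alternatives, 106 were the same, 2 lost the call, 3 gained one, 10 reversed and 16 moved a count. For counts of feature classes, motifs and words, the same means a count of similar size, whichever of them were called. For the other results it means that direction and call were kept. The cause of the changes was not tested. The X share was called in all 12 alternatives, 10 of them against shared peaks (odds ratios 0.324 to 0.462), the upstream share in 13 of 14 and the G+C share in 14 of 15 with the same direction. The strata of G+C and signal, the set without overlapped peaks and the promoter-only set were chosen after seeing the data.

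Against replicate 2 candidates in place of shared peaks, the odds ratios were 1.63 for the upstream share, 0.631 for G+C-rich summits, 1.56 for repeats and 0.365 for the distal share. Against replicate 1 only peaks the distal ratio was 0.326. At 35 to 45% G+C (393 and 400 summits) the promoter ratio was 0.866, the repeat ratio 1.70 and the distal ratio 1.51. There, 0 feature classes, 1 motif and 9 words were called. With a score of 1000 the distal ratio was 1.03, and 0 classes and 631 words were called. The site word ratio, with words learned anew, was then 1.26 (exact test, p = 0.0551). Above each group's median signal the promoter ratio was 1.15, the distal ratio 1.23, and 0 classes and 440 words were called. At a signal of 30 to 60 the distal ratio was 0.579 and 404 words were called. The site word ratio was 0.973 outside the larger set and 0.661 within 50 bp. Word calls, 1194 over all peaks, numbered 660 without a replicate 1 candidate, 622 outside the larger set, 705 against replicate 1 only peaks, 573 against candidates, 575 at promoters, 375 in windows of 25 bp to each side and 1807 in windows of 100 bp to each side. Motif calls numbered 4 in the narrower windows.

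Leaving out a replicate was not run, as both define the peaks. No paired analysis was possible because there is 1 group. Depth is unknown, and what it limits was not measured.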
